A study of Homo sapiens and Mus musculus with 24 samples.

Results

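The expression of 10 genes of the Notch pathway was followed through 4 lines of Caco-2 cells and through purified colonic epithelium of mice with and without epithelial Dnmt3a. The genes were chosen by name, as the receptors NOTCH1, NOTCH2 and NOTCH3, the ligands DLL1, DLL4, JAG1 and JAG2, the nuclear factor RBPJ, the target HES1 and the secretory lineage factor ATOH1. All 10 were among the 58051 human gene identifiers, and 9 were among the 29307 mouse genes, where Atoh1 was not analysed here. Caco-2 is a human line from a colorectal adenocarcinoma that takes on features of enterocytes. WT cells (4 libraries) were compared with ΔDNMT3A cells (4 libraries), a clone in which DNMT3A had been disrupted with CRISPR/Cas9. In DNMT3A1 cells (3 libraries, with the listed replicate 3 not analysed here) and DNMT3A2 cells (4 libraries), a TY1-tagged isoform of the enzyme had been put back into ΔDNMT3A cells from a piggyBac vector, so both lines also carry the deletion and were grown from single cells under puromycin. Mice were 12 weeks old and untreated. Dnmt3a ΔIEC mice carry Villin-Cre, active in the intestinal epithelium, and lack exons 13 to 17 of Dnmt3a there (4 libraries), whereas Dnmt3a fl/fl mice carry the same floxed alleles without Cre (4 libraries). Since each Caco-2 group is 1 line, its libraries and p-values measure the spread within that line and not between clones.

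Notch receptors sit in the cell membrane and are activated by ligands of the Delta-like and Jagged families on a neighbouring cell. Ligand binding allows the metalloproteases ADAM10 and ADAM17 and then γ-secretase to cut the receptor, and the freed intracellular domain joins RBPJ and Mastermind-like coactivators on DNA to switch on targets such as HES1. In the intestinal crypt, HES1 represses ATOH1, and cells that escape Notch activation turn on ATOH1 and enter the secretory lineages of goblet, enteroendocrine, Paneth and tuft cells.

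Caco-2 libraries held between 22104408 and 42161299 reads on genes, and mouse libraries between 16943626 and 24921248. Levels are given as CPM, the count of a gene scaled to a fixed number of reads, on library sizes scaled by TMM, a method that lines up the bulk of genes between libraries. The check of the targeted gene gave a DNMT3A level of 65.4 ± 2.48 CPM for WT (SD, n = 4). For ΔDNMT3A this was 20.7 ± 1.27 CPM (SD, n = 4), and for DNMT3A1 it was 37.7 ± 1.13 CPM (SD, n = 3). The libraries labelled DNMT3A2 held 21.8 ± 1.36 CPM (SD, n = 4), 0.07 above ΔDNMT3A on the log2 scale, which did not pass the threshold (standard error, SE, of 0.06, adjusted p of 0.272, edgeR quasi-likelihood, Benjamini-Hochberg). At the protein level, the study reported that immunoblots showed either isoform re-expressed and that staining placed both in the nuclei. How this relates to the RNA level was not tested. In mice, Dnmt3a fell from 93.6 ± 7.79 CPM in fl/fl to 46.2 ± 3.08 CPM in ΔIEC (SD, n = 4 each, log2 change -1.03, adjusted p of 0.000763, same edgeR fit). Epcam, a marker of epithelium, lay between 1704 and 2489 CPM in the mouse libraries, while Ptprc of leukocytes stayed at or below 4.88 CPM and Cdh5 of endothelium at or below 0.10 CPM. In Caco-2, EPCAM and VIL1 were high in all lines and the goblet mucin MUC2 was at or below 0.10 CPM.

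The levels of the genes can be compared with each other only per length of transcript, and per kilobase of annotated exon HES1 was the highest of the 10 in every Caco-2 line and in both mouse groups. In WT cells it stood at 34.4 ± 1.08 CPM per kilobase (SD, n = 4). JAG1 followed with 13.5 ± 0.23 CPM per kilobase, ahead of NOTCH2 with 6.28 ± 0.31 and RBPJ with 4.31 ± 0.18. NOTCH3 (3.27 ± 0.30) and JAG2 (3.22 ± 0.16) could not be ordered, since their libraries overlapped. NOTCH1 (1.18 ± 0.11), DLL1 (0.69 ± 0.12) and DLL4 (0.39 ± 0.04) closed the order, and all other neighbours in it did not overlap. Epithelium of fl/fl mice had a different order. Hes1 was again first with 30.7 ± 6.11 CPM per kilobase (SD, n = 4), and Jag1 second with 7.23 ± 1.03. Notch1 followed with 5.21 ± 0.77, overlapping with Dll4, and stood ahead of Notch2 with 2.40 ± 0.90, while Notch3 was last with 0.14 ± 0.05 CPM per kilobase. NOTCH2 was thus the highest of these receptors in Caco-2 and Notch1 in the mouse colon, with no overlap between Notch1 and Notch2 in fl/fl libraries. Both Delta-like ligands were measured at about the same level in fl/fl epithelium, with 3.25 ± 0.63 CPM per kilobase for Dll4 and 3.23 ± 0.49 for Dll1.

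Among the receptors, NOTCH1 and NOTCH3 were lower in ΔDNMT3A cells than in WT and then parted in the lines labelled with an isoform. NOTCH1 (ENSG00000148400, GRCh38, chromosome 9, 136494444 to 136545862, minus strand) encodes the receptor most studied in the intestinal stem cell. Its 4 WT libraries held 10.8, 10.7, 12.6 and 12.7 CPM. The ΔDNMT3A libraries held 5.44, 6.53, 5.68 and 6.03 CPM, and the DNMT3A1 libraries 6.56, 6.44 and 6.89 CPM. In DNMT3A2 they held 11.9, 13.3, 13.7 and 12.8 CPM. The WT libraries and those labelled DNMT3A2 therefore overlap with each other, and lie apart from ΔDNMT3A and DNMT3A1 without overlap. The log2 change in ΔDNMT3A against WT was -0.98 (SE 0.08, adjusted p of 1.65e-10, edgeR quasi-likelihood, Benjamini-Hochberg), with -0.85 in the libraries of sequencing lane 5 alone and -1.09 in those of lane 6. DNMT3A1 differed from ΔDNMT3A by 0.18, with a 95% interval from -0.01 to 0.37, which did not pass the threshold (unadjusted p of 0.0566, adjusted p of 0.0872, same edgeR fit). DNMT3A2 exceeded ΔDNMT3A by 1.13 on the log2 scale (SE 0.07, adjusted p of 2.82e-12, same edgeR fit). It also exceeded WT, by 0.16 (adjusted p of 0.0401, same edgeR fit), a call that held in 10 of 19 alternative settings. Between DNMT3A1 and DNMT3A2 the difference was -0.96 in DNMT3A1 against DNMT3A2 (SE 0.08, adjusted p of 2.47e-11, same edgeR fit), or 1.94-fold.

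NOTCH3 (ENSG00000074181, chromosome 19, 15159038 to 15200981, minus strand) encodes a receptor best known from vascular smooth muscle that is also made by carcinoma cells. WT libraries held 28.1, 29.2, 30.8 and 34.6 CPM, and ΔDNMT3A libraries 16.0, 18.4, 14.8 and 17.3 CPM. DNMT3A1 libraries reached 35.7, 37.3 and 35.4 CPM, and those labelled DNMT3A2 held 32.8, 30.3, 32.3 and 30.0 CPM. Only the ΔDNMT3A libraries were low, and they overlapped none of the other 3 lines. It differed by -0.88 on the log2 scale between ΔDNMT3A and WT (SE 0.06, adjusted p of 2.04e-11, edgeR quasi-likelihood, Benjamini-Hochberg), and it was -0.74 within lane 5 and -1.02 within lane 6. Against ΔDNMT3A it was 1.13 in DNMT3A1 (SE 0.06, adjusted p of 2.83e-12) and 0.92 in the libraries labelled DNMT3A2 (SE 0.06, adjusted p of 1.91e-12), by the same edgeR fit. DNMT3A1 lay above WT by 0.26 on the log2 scale (adjusted p of 0.000189, same edgeR fit). This difference was 0.14 within lane 6, where DNMT3A1 has only 1 library. DNMT3A2 differed from WT by 0.04, with a 95% interval from -0.06 to 0.14.

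**Figure D1:**
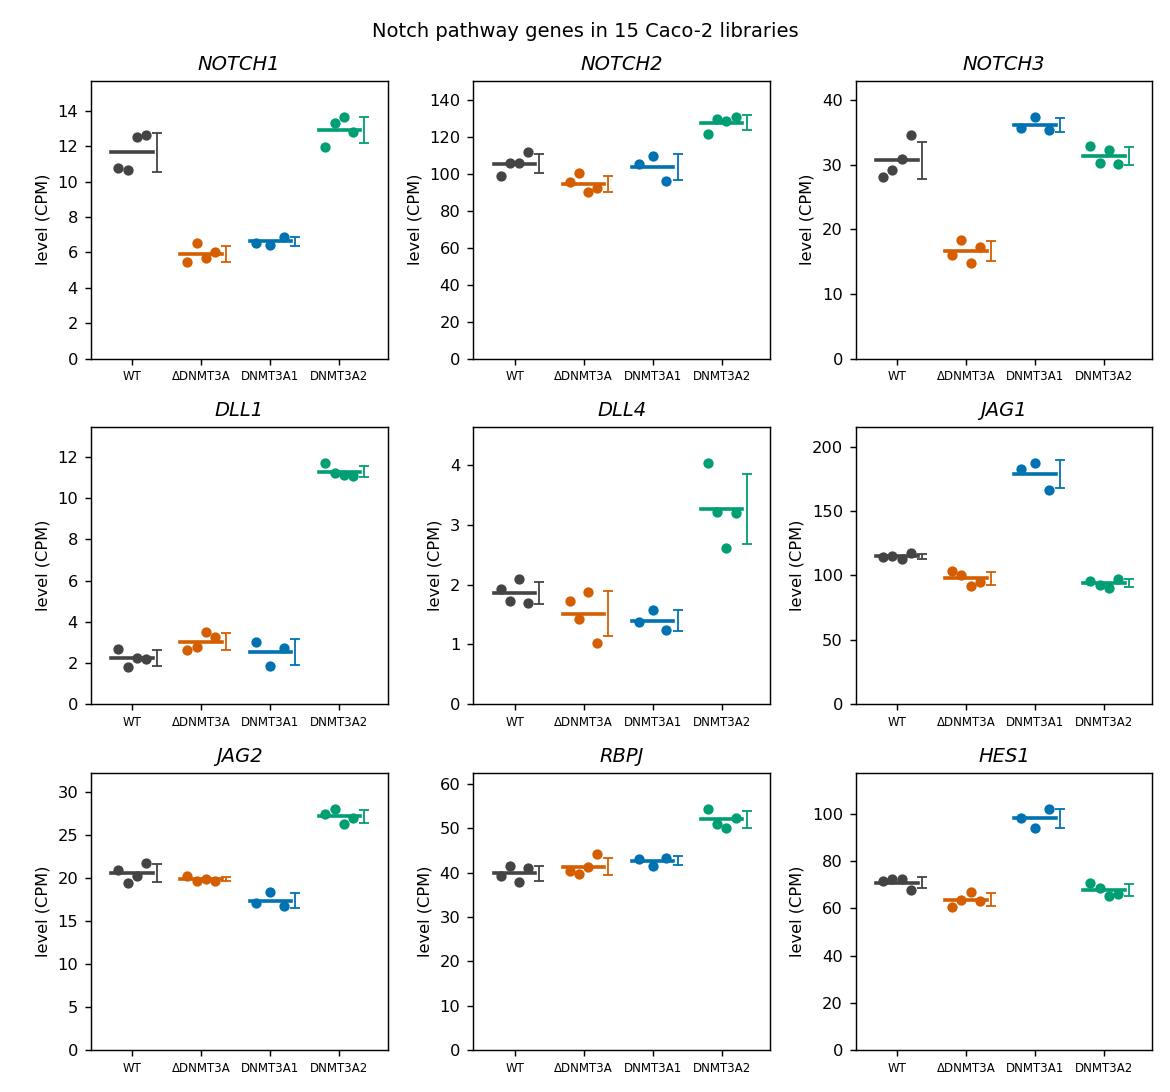
Levels (CPM, vertical axes from 0) of 9 Notch pathway genes in WT, ΔDNMT3A, DNMT3A1 and DNMT3A2 Caco-2 cells. Points are libraries, horizontal lines are means and bars at the right of each group are ± 1 SD. NOTCH1 is low in ΔDNMT3A and DNMT3A1 (5.44 to 6.89 CPM), NOTCH3 only in ΔDNMT3A (14.8 to 18.4 CPM), and DLL1 is high in DNMT3A2 (11.1 to 11.7 CPM).

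NOTCH2 (ENSG00000134250, chromosome 1, 119911553 to 120069626, minus strand) had the smallest change of the 3 receptors in ΔDNMT3A against WT. WT had 105.5 ± 5.15 CPM (SD, n = 4), ΔDNMT3A had 94.7 ± 4.37 CPM (SD, n = 4) and DNMT3A1 had 103.7 ± 6.92 CPM (SD, n = 3), and these 3 lines overlapped. The libraries labelled DNMT3A2 held 121.5, 129.7, 128.6 and 130.6 CPM and lay above all others. ΔDNMT3A differed from WT by -0.15 on the log2 scale (adjusted p of 0.000735, edgeR quasi-likelihood, Benjamini-Hochberg), but it was -0.07 within lane 5, where it missed the threshold. In the libraries labelled DNMT3A2 against ΔDNMT3A it was 0.43 (SE 0.03, adjusted p of 3.58e-11, same edgeR fit). Human NOTCH2 shares near-identical exons with the NOTCH2NL genes, so its count is uncertain, and NOTCH2NLA itself received 9 to 19 counts per library.

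The DNA before NOTCH1 and NOTCH3 is shown because these 2 receptors fell together in ΔDNMT3A cells, and because DNMT3A acts on CpG dinucleotides. The 250 bases before the start of each gene in RefSeq (GRCh38.p14, minus strand, written in the direction of transcription) are given with each CG in capitals, for NOTCH1 at chr9:136546049-136546298 and for NOTCH3 at chr19:15200996-15201245.
NOTCH1: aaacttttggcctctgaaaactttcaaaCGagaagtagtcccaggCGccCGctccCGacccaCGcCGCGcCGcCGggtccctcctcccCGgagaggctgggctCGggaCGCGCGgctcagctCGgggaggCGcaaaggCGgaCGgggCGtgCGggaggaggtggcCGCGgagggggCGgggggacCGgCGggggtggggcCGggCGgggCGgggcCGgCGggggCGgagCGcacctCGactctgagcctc
NOTCH3: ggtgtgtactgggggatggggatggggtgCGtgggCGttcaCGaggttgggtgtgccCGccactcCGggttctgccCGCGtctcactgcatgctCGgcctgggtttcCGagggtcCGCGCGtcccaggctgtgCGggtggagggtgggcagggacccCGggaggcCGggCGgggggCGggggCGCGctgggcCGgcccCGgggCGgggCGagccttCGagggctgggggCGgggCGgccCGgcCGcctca
The run before NOTCH1 holds 33 CG and that before NOTCH3 holds 28. In windows that add 50 bases after the start, NOTCH1 has 42 CG, NOTCH2 33 and NOTCH3 37, against a median of 14 over 35116 RefSeq windows of 300 bases. A share of 94.1% of all windows hold fewer CG than that of NOTCH1. Windows were found for 9 of the 10 genes, and the 8 genes with a single window held from 21 (HES1) to 46 (JAG2) CG. Methylation was not analysed here, so the density describes the DNA and not its state.

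Of the ligands, JAG1 had the highest level per length in Caco-2 and was higher in DNMT3A1 cells than in any other line. JAG1 (ENSG00000101384, chromosome 20, 10637684 to 10674107, minus strand) encodes Jagged 1. WT libraries held 114.6, 114.8, 112.5 and 117.3 CPM and ΔDNMT3A libraries 103.6, 100.6, 92.1 and 94.9 CPM. DNMT3A1 libraries reached 183.0, 187.3 and 166.6 CPM, while those labelled DNMT3A2 stayed at 96.1, 92.8, 90.0 and 96.9 CPM. The 3 DNMT3A1 libraries overlapped with none of the other 12. The log2 change was -0.22 in ΔDNMT3A against WT (SE 0.03, adjusted p of 2.54e-06) and 0.88 in DNMT3A1 against ΔDNMT3A (SE 0.04, adjusted p of 8.97e-13), by edgeR quasi-likelihood, Benjamini-Hochberg. DNMT3A2 differed from ΔDNMT3A by -0.06, with a 95% interval from -0.13 to 0.01. DNMT3A1 exceeded DNMT3A2 by 0.93 on the log2 scale, or 1.91-fold (SE 0.04, adjusted p of 1.1e-17, same edgeR fit).

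DLL1 and DLL4, the Delta-like ligands of the crypt, were scarce in Caco-2 and were highest in the libraries labelled DNMT3A2. DLL1 (ENSG00000198719, chromosome 6, 170282206 to 170306565, minus strand) had 2.70, 1.80, 2.25 and 2.22 CPM in WT, from 49 to 90 counts per library. ΔDNMT3A libraries held 2.61, 2.76, 3.53 and 3.25 CPM and DNMT3A1 libraries 3.03, 1.84 and 2.73 CPM. Those labelled DNMT3A2 held 11.7, 11.2, 11.1 and 11.1 CPM, from 248 to 344 counts, and none overlapped with the other lines. Against ΔDNMT3A their log2 change was 1.91, or 3.76-fold (SE 0.09, adjusted p of 4.09e-15, edgeR quasi-likelihood, Benjamini-Hochberg). Against WT it was 2.33 (SE 0.09, adjusted p of 2.04e-19, same edgeR fit), the largest change of any of the 10 genes in the 6 Caco-2 comparisons. DNMT3A1 differed from ΔDNMT3A by -0.22, with a 95% interval from -0.55 to 0.12. ΔDNMT3A lay above WT by 0.42 (adjusted p of 0.00819, same edgeR fit), although 1 WT library lay within the ΔDNMT3A range and the difference within lane 5 was 0.23, below the threshold.

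DLL4 (ENSG00000128917, chromosome 15, 40929340 to 40939072, plus strand) had 1.92, 1.72, 2.09 and 1.69 CPM in WT and 1.72, 1.42, 1.88 and 1.03 CPM in ΔDNMT3A, from 31 to 72 counts per library. Its level was 1.37, 1.58 and 1.24 CPM in DNMT3A1, and 4.03, 3.21, 2.62 and 3.19 CPM in the libraries labelled DNMT3A2, which were the highest without overlap. The log2 change of 1.09 in these against ΔDNMT3A passed the threshold (SE 0.16, adjusted p of 3.22e-06, edgeR quasi-likelihood, Benjamini-Hochberg). ΔDNMT3A against WT gave -0.27, with a 95% interval from -0.62 to 0.07. JAG2 (ENSG00000184916, chromosome 14, 105140981 to 105168824, minus strand) was even in WT and ΔDNMT3A, with 20.6 ± 1.00 and 19.9 ± 0.24 CPM (SD, n = 4 each) and a log2 change of -0.05, with a 95% interval from -0.15 to 0.06. In the libraries labelled DNMT3A2, JAG2 rose to 27.4, 28.1, 26.3 and 27.0 CPM, a log2 change of 0.45 against ΔDNMT3A (SE 0.05, adjusted p of 1.35e-08, same edgeR fit). In DNMT3A1 it stood lower, at 17.1, 18.4 and 16.7 CPM, a log2 change of -0.18 against ΔDNMT3A (adjusted p of 0.00525, same edgeR fit). This change was -0.15 in lane 5 alone, where it missed the threshold, and -0.24 in lane 6, where DNMT3A1 has only 1 library.

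RBPJ, the DNA-binding factor on which all Notch receptors act, differed little between the lines. RBPJ (ENSG00000168214, chromosome 4, 26163455 to 26435131, plus strand) had a level of 39.9 ± 1.68 CPM for WT and of 41.3 ± 1.94 CPM for ΔDNMT3A (SD, n = 4 each), with a log2 change of 0.06 with a 95% interval from -0.03 to 0.14. It was 42.7 ± 0.97 CPM in DNMT3A1 (SD, n = 3). The libraries labelled DNMT3A2 held 54.4, 51.01, 50.1 and 52.3 CPM, above all others, and their log2 change against ΔDNMT3A was 0.33 (SE 0.04, adjusted p of 5.99e-08, edgeR quasi-likelihood, Benjamini-Hochberg).

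HES1, a repressor that is a direct target of Notch, was highest in DNMT3A1 cells. HES1 (ENSG00000114315, chromosome 3, 194136145 to 194138732, plus strand) had 71.5, 72.3, 72.2 and 67.6 CPM in WT. ΔDNMT3A libraries held 60.6, 63.7, 67.1 and 63.1 CPM and those labelled DNMT3A2 70.9, 68.8, 65.2 and 66.0 CPM. DNMT3A1 libraries held 98.3, 93.9 and 102.1 CPM and lay above the rest. The log2 change in DNMT3A1 against ΔDNMT3A was 0.64, or 1.56-fold (SE 0.04, adjusted p of 3.71e-11, edgeR quasi-likelihood, Benjamini-Hochberg), and DNMT3A1 exceeded DNMT3A2 by 0.54 (SE 0.04, adjusted p of 9.5e-13, same edgeR fit). Both lines are labelled as derived from ΔDNMT3A cells. HES1 in the libraries labelled DNMT3A2 lay only 0.09 above ΔDNMT3A (adjusted p of 0.0274, same edgeR fit), and 0.01 within lane 6. The fall in ΔDNMT3A against WT was small, with a log2 change of -0.15 (adjusted p of 0.00115, same edgeR fit), and within lane 6 it was -0.09 and missed the threshold. DNMT3A1 was thus the highest line for HES1 and JAG1, whereas for NOTCH1 it lay below WT. Among 13753 genes with a mean of at least 1 CPM, LRP11 and ATN1 were among the 3 whose mean levels followed HES1 most closely over the 4 lines, with root mean square differences of 0.016 and 0.026 on the log2 scale.

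The promoter of HES1 is shown because it is the textbook place where the Notch intracellular domain and RBPJ act. The 250 bases before its start in RefSeq (GRCh38.p14, chr3:194135898-194136147, plus strand) are given with the core letters TGGGAA in capitals.
HES1: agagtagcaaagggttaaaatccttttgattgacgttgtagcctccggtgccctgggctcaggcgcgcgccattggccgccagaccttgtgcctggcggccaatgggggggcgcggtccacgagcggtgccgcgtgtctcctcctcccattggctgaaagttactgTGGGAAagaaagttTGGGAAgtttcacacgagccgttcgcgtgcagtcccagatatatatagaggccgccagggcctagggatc
The letters TGGGAA were found at 2 places, beginning 84 and 70 bases before the start, and both read along the strand shown. On either strand, they are in 24.03% of the 35116 windows of 300 bases. The longer GTGGGAA, which contains TGGGAA, is in 6.25% of windows, and in that of HES1 at 1 place. Of the 8 genes with a single window, the other 7 (NOTCH1, NOTCH2, NOTCH3, DLL4, JAG1, JAG2 and ATOH1) do not hold TGGGAA in it. RBPJ has 5 windows, of which 1 (chromosome 4, 26319496 to 26319795, plus strand) holds TGGGAA at 2 places, both as GTGGGAA, and the other 4 hold none. A match describes letters and not a bound site. Only these letters were searched for, so a site with other letters is left unmarked. The 2 matches of HES1 are not shown to be a pair of RBPJ sites.

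ATOH1 (ENSG00000172238, chromosome 4, 93828753 to 93830964, plus strand), which drives cells into the secretory lineages, had 0 counts in each of the 15 Caco-2 libraries. At these depths a count of 0 allows a level of up to 0.07 to 0.14 CPM, taken as 3 counts per library and covering counting error only. No difference between the lines could be detected, and no test was made.

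Counted over the 9 genes that could be tested, 6 passed the threshold (adjusted p under 0.05) in ΔDNMT3A against WT, 1 higher (DLL1) and 5 lower (NOTCH1, NOTCH2, NOTCH3, JAG1 and HES1). Of all 16654 genes tested in that comparison, 62.2% passed, 31.2% higher and 31% lower, so the count of the Notch genes is near that of all genes. Their median log2 change was -0.15, against 0.00 over all genes tested. The libraries of both lines did not overlap for 4 of the 9, as for 55.1% of all genes. In DNMT3A1 against ΔDNMT3A, 5 passed, with 4 higher and JAG2 lower, where 60.7% of all genes passed, 30.4% higher and 30.3% lower. Here too 4 of the 9 did not overlap (59.7% of all genes). In the libraries labelled DNMT3A2 against ΔDNMT3A, 8 passed, all higher, where 67.9% of all genes passed, 33.8% higher and 34.1% lower. Their median was 0.45 against 0.00 for all genes, and 7 of the 9 did not overlap (61.1% of all genes). Both comparisons share the ΔDNMT3A libraries.

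Set against WT, 6 of the 9 passed in DNMT3A1, with 4 higher and 2 lower, where 65.3% of all genes passed (32.6% higher and 32.7% lower), and 7 did not overlap (63.2% of all genes). In the libraries labelled DNMT3A2, 7 passed, with 6 higher and JAG1 lower, where 68.7% of all genes passed (34.3% higher and 34.4% lower), and 6 did not overlap (61.3% of all genes). All 9 differed between DNMT3A1 and DNMT3A2 and none overlapped, where 68.5% of all genes passed (34.5% higher in DNMT3A1 and 33.9% lower) and 66.2% did not overlap. NOTCH3, JAG1 and HES1 were higher in DNMT3A1, and NOTCH1, NOTCH2, DLL1, DLL4, JAG2 and RBPJ were higher in the libraries labelled DNMT3A2. Asking for at least 1 on the log2 scale beside the adjusted p left 0 of the 9 in ΔDNMT3A against WT (8.51% of all genes), NOTCH3 alone in DNMT3A1 against ΔDNMT3A (8.32%) and NOTCH1, DLL1 and DLL4 in DNMT3A2 against ΔDNMT3A (11.9%). It left 0 in DNMT3A1 against WT (12%), DLL1 alone in DNMT3A2 against WT (11.1%), and DLL1 and DLL4 in DNMT3A1 against DNMT3A2 (13.1%).

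**Figure D2:**
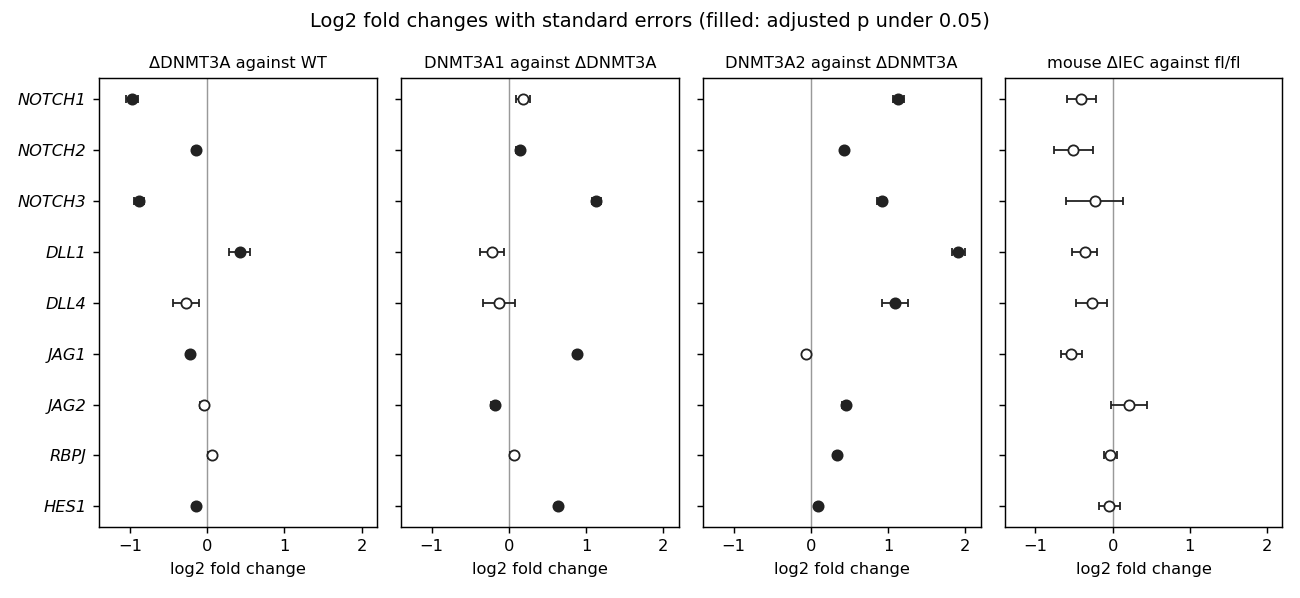
Log2 changes (horizontal axes) of 9 Notch pathway genes with bars of ± 1 SE in 4 comparisons. Filled points passed an adjusted p of 0.05 by edgeR's quasi-likelihood test and open points did not. ΔDNMT3A had its largest falls in NOTCH1 (-0.98) and NOTCH3 (-0.88), and no point is filled for the mouse colon.

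The genes around NOTCH1 and NOTCH3 had smaller changes in the middle of their range, given here as a description with no test. Over the 50 tested genes nearest to each along its chromosome, the median log2 change in ΔDNMT3A against WT was -0.16 around NOTCH1 and -0.05 around NOTCH3. This did not hold for all genes that passed in that comparison. Around HES1 the median was -0.29, beside -0.15 for HES1, and around JAG1 it was -0.16, beside -0.22 for JAG1. NOTCH2 (-0.15) and DLL1 (0.42) had neighbours with medians of 0.11 and 0.03. Around DLL1 the 50 nearest genes had a median of 0.10 in the libraries labelled DNMT3A2 against ΔDNMT3A, and around HES1 the median was 0.25 in DNMT3A1 against ΔDNMT3A, beside 0.64 for HES1 itself.

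Further genes of the pathway were taken by role from hand-written lists. NRARP, an ankyrin-repeat protein that is itself a Notch target and lowers the stability of the intracellular domain, had the lowest log2 change of the receptor turnover and inhibitor genes in ΔDNMT3A. WT libraries held 10.3, 9.67, 11.5 and 10.3 CPM and ΔDNMT3A libraries 4.65, 4.84, 4.87 and 4.28 CPM. DNMT3A1 libraries held 6.98, 6.44 and 8.38 CPM and those labelled DNMT3A2 12.2, 10.03, 11.4 and 10.5 CPM. The means of the lines thus stood in the order they had for NOTCH1, with DNMT3A1 below WT. DNMT3A1 did not pass the threshold against ΔDNMT3A for NOTCH1 but did for NRARP, and WT and DNMT3A2 libraries overlapped for NRARP. ΔDNMT3A differed from WT by -1.15 on the log2 scale (SE 0.08, adjusted p of 6.3e-12, edgeR quasi-likelihood, Benjamini-Hochberg). In DNMT3A1 against ΔDNMT3A it was 0.66 (adjusted p of 8.66e-06), and in the libraries labelled DNMT3A2 it was 1.25 (adjusted p of 1.22e-12), by the same edgeR fit. NRARP lies on the same chromosome as NOTCH1 (chromosome 9, 137300482 to 137302251). Of the 9 receptor turnover and inhibitor genes tested, 4 were lower in ΔDNMT3A than in WT and none was higher, with a median of -0.12. The others named by the rule, DTX4 (a Deltex ubiquitin ligase) at -0.23 and NUMBL (an endocytic adaptor related to Numb) at -0.21, changed little.

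Of the 9 proteases that cut Notch receptors, 2 were higher and 4 lower in ΔDNMT3A. ADAM17, a sheddase, fell from 89.2 ± 1.23 to 51.1 ± 2.39 CPM (SD, n = 4 each, log2 change -0.80, adjusted p of 1.09e-15, edgeR quasi-likelihood, Benjamini-Hochberg). DNMT3A1 had 61.2 ± 1.26 CPM (SD, n = 3), while DNMT3A2 reached 95.2 ± 4.99 CPM (SD, n = 4). FURIN, which cleaves the receptor on its way to the membrane, fell by 0.53 on the log2 scale, and PSEN2 of γ-secretase rose by 0.28. Of the 5 glycosyltransferases that modify receptors, 1 was higher and 3 lower. LFNG (Lunatic fringe) rose from 3.81 to 5.57 CPM, MFNG fell from 1.97 to 1.38 CPM, and POFUT1, which adds the fucose that receptors need, fell from 368.8 to 269.2 CPM. Among the 3 ligand ubiquitin ligases tested, 2 were lower. NEURL1B, which promotes uptake of ligands, had a WT level of 40.99 ± 2.32 CPM and a ΔDNMT3A level of 26.0 ± 0.95 CPM (SD, n = 4 each). It was lower still in the other 2 lines, where DNMT3A1 had 10.7 ± 0.76 CPM (SD, n = 3) and DNMT3A2 reached 14.5 ± 0.73 CPM (SD, n = 4). MIB2 fell by 0.24 on the log2 scale.

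Of the 7 coactivators, 3 rose and 3 fell in ΔDNMT3A. MAML3 and MAML2, Mastermind-like proteins that bridge RBPJ and the intracellular domain, fell by 0.74 and 0.57 on the log2 scale, and the acetyltransferase CREBBP by 0.39. The 3 that rose were MAML1 of the same family (0.21), SNW1 (0.32) and EP300 (0.22). For MAML2, WT had 7.04 ± 0.78 CPM and ΔDNMT3A 4.71 ± 0.20 CPM (SD, n = 4 each). DNMT3A1 had 16.3 ± 0.46 CPM (SD, n = 3) and DNMT3A2 had 8.56 ± 0.61 CPM (SD, n = 4), so DNMT3A1 held the most, as it did of JAG1 and HES1. Of the 8 corepressors, 1 rose and 2 fell, with changes between -0.17 (HDAC1) and 0.14 (RITA1). Of the 5 HES and HEY factors tested, 2 rose and 2 fell. HEYL rose by 0.46, whereas HES4 fell from 14.2 to 10.9 CPM and HES6 from 8.83 to 7.09 CPM. Unlike HES1, HES4 (7.51 CPM) and HES6 (5.29 CPM) had their lowest means in DNMT3A1. Against ΔDNMT3A, 0 of these 5 factors passed as higher in DNMT3A1 and 2 as lower, where 30.4% of all genes were higher and 30.3% lower. Of the 5 secretory lineage factors tested, 3 rose and 1 fell. KLF4, which is needed for goblet cells to mature, rose from 2.85 ± 0.38 to 6.56 ± 0.51 CPM and GFI1 from 1.604 to 2.70 CPM, while FOXA1 fell from 138.5 ± 3.98 to 77.0 ± 3.42 CPM (SD, n = 4 each). The ligand-like DLK2 rose from 1.64 to 4.18 CPM. Each change called a rise or fall here passed an adjusted p of 0.05 (edgeR quasi-likelihood, Benjamini-Hochberg), against the 31.2% of all genes that were higher and 31% that were lower.

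**Figure D3:**
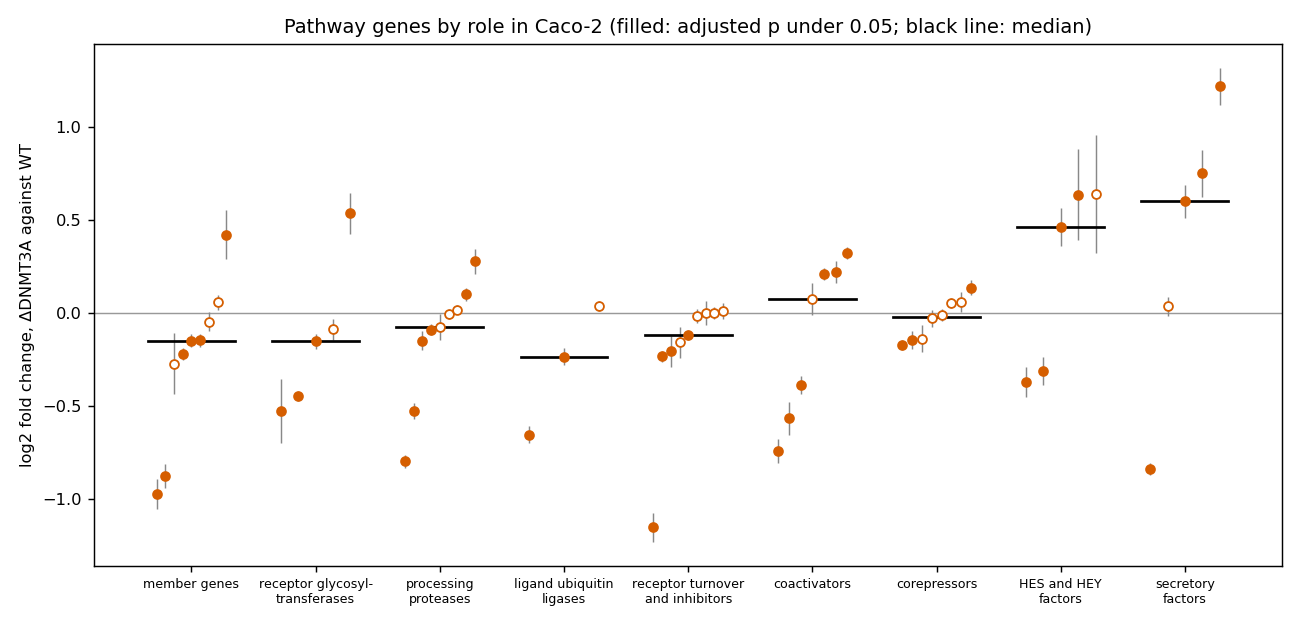
Log2 changes in ΔDNMT3A against WT (vertical axis) of pathway genes grouped by role, with bars of ± 1 SE. Filled points passed an adjusted p of 0.05, open points did not, and black lines are medians of each group. The lowest point among the inhibitors is NRARP (-1.15) and the highest among the secretory factors is KLF4 (1.22).

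**Figure D4:**
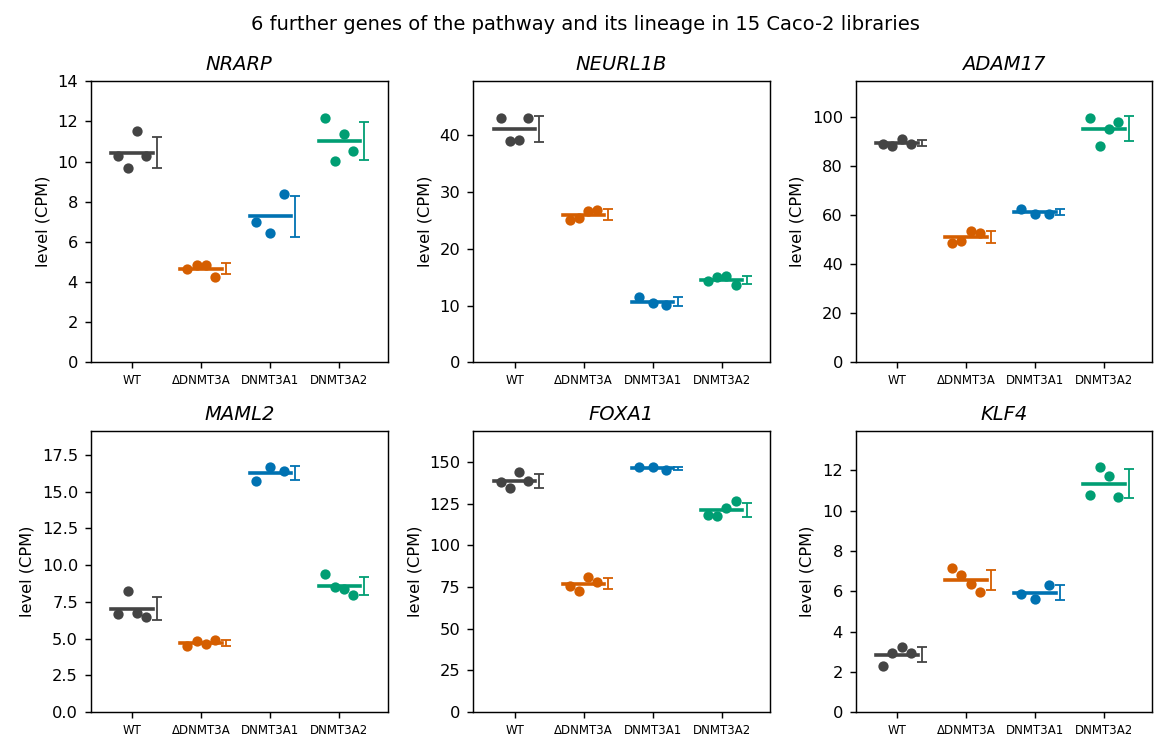
Levels (CPM, vertical axes from 0) of NRARP, NEURL1B, ADAM17, MAML2, FOXA1 and KLF4 in the 4 Caco-2 lines. Points are libraries, lines are means and bars are ± 1 SD. NRARP follows the order seen for NOTCH1 (means of 10.4, 4.66, 7.27 and 11.0 CPM in WT, ΔDNMT3A, DNMT3A1 and DNMT3A2), and MAML2 is highest in DNMT3A1 (15.8 to 16.6 CPM).

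Markers of cell types also differed between the Caco-2 lines, and their part in the Notch values was not tested. Summed over 7 stem and progenitor genes, the WT libraries ranged from 208.5 to 211.2 CPM and those of ΔDNMT3A from 171.9 to 180.8 CPM. The sums were 286.4 to 303.2 CPM for DNMT3A1 and 351.4 to 387.5 CPM for the libraries labelled DNMT3A2. Of the 6 stem genes tested in ΔDNMT3A against WT, LGR5 (log2 change of -2.42), SOX9 (-0.38) and EPHB2 (-0.26) fell, AXIN2 (0.27) and CD44 (0.18) rose, and ASCL2 (-0.02) did not pass. Goblet markers, 8 genes in sum, lay between 157.5 and 172.9 CPM for WT, between 253.0 and 270.8 CPM for ΔDNMT3A and between 286.2 and 316.4 CPM for DNMT3A1, without overlap, and between 150.5 and 158.6 CPM for the libraries labelled DNMT3A2. Only 3 of these goblet genes could be tested in ΔDNMT3A against WT, and they did not move together. ZG16 (log2 change of 1.04) and AGR2 (0.72) rose, while TFF3 (-0.58) fell. Of the 8 enterocyte-like epithelial markers, 5 rose and 1 fell in ΔDNMT3A against WT, with KRT20, a keratin of differentiated epithelium, changed most (3.95 on the log2 scale).

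In the mouse colon, none of the 9 Notch genes passed the threshold between ΔIEC and fl/fl epithelium, where 0.691% of 14626 genes did, 0.602% higher and 0.0889% lower. The groups overlapped for all 9, while 10.2% of all genes did not overlap. Of the 9, 2 had an unadjusted p under 0.05 in edgeR's test (14.1% of all genes). DESeq2, the test named in the study's methods, called 1 of the 9, where it called 407 of 14340 genes. In 8 of the 9 the log2 change was negative, with a median of -0.27 against 0.00 over all genes tested, of which 50.6% were negative. In bulk tissue, fewer cells of a type and less RNA per cell cannot be told apart.

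Jag1 (ENSMUSG00000027276, GRCm38, chromosome 2, 137081456 to 137116644, minus strand) came closest. Its fl/fl libraries held 42.3, 34.9, 49.6 and 41.7 CPM and its ΔIEC libraries 35.2, 30.2, 23.5 and 27.9 CPM. The groups touched only through 1 library on each side, fl/fl replicate 2 and ΔIEC replicate 1. The log2 change was -0.54 (SE 0.14, adjusted p of 0.157, edgeR quasi-likelihood, Benjamini-Hochberg). With DESeq2 it was -0.55 and passed the threshold (adjusted p of 0.0206), the only call among its 15 alternatives, over which the adjusted p ranged from 0.0206 to 0.365. Dll1 held 15.6, 12.3, 11.4 and 15.2 CPM in fl/fl and 12.9, 11.5, 8.96 and 9.17 CPM in ΔIEC, with a log2 change of -0.36 (SE 0.16, adjusted p of 0.344, same edgeR fit). These groups overlapped, as did those of all 9 genes.

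Notch1 (ENSMUSG00000026923, chromosome 2, 26457903 to 26516663, minus strand) held 82.9, 58.3, 79.5 and 75.6 CPM in fl/fl and 74.1, 62.9, 50.1 and 37.7 CPM in ΔIEC. The 2 lowest values were ΔIEC libraries, and the groups overlapped. Its log2 change of -0.40 had a 95% interval from -0.83 to 0.02 and an adjusted p of 0.376 (edgeR quasi-likelihood, Benjamini-Hochberg). Notch2 held 25.2, 15.1, 38.6 and 24.5 CPM in fl/fl and 23.1, 20.2, 14.3 and 15.2 CPM in ΔIEC, a log2 change of -0.51 (SE 0.25, adjusted p of 0.393, same edgeR fit). Notch3 was scarce in both groups, with 9 to 37 counts per library. Dll4 gave -0.27, with a 95% interval from -0.71 to 0.17, and Jag2 gave 0.21, from -0.31 to 0.73.

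Rbpj and Hes1, the nuclear factor and the target, had log2 changes near 0 between the mouse groups. Rbpj held 20.5, 20.0, 20.8 and 19.2 CPM in fl/fl and 19.5, 19.2, 19.6 and 21.0 CPM in ΔIEC, with a log2 change of -0.03 and a 95% interval from -0.22 to 0.16. Hes1 held 74.2, 47.2, 71.1 and 58.0 CPM in fl/fl and 68.3, 57.2, 55.6 and 63.2 CPM in ΔIEC, with a log2 change of -0.04 and a 95% interval from -0.35 to 0.26.

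**Figure D5:**
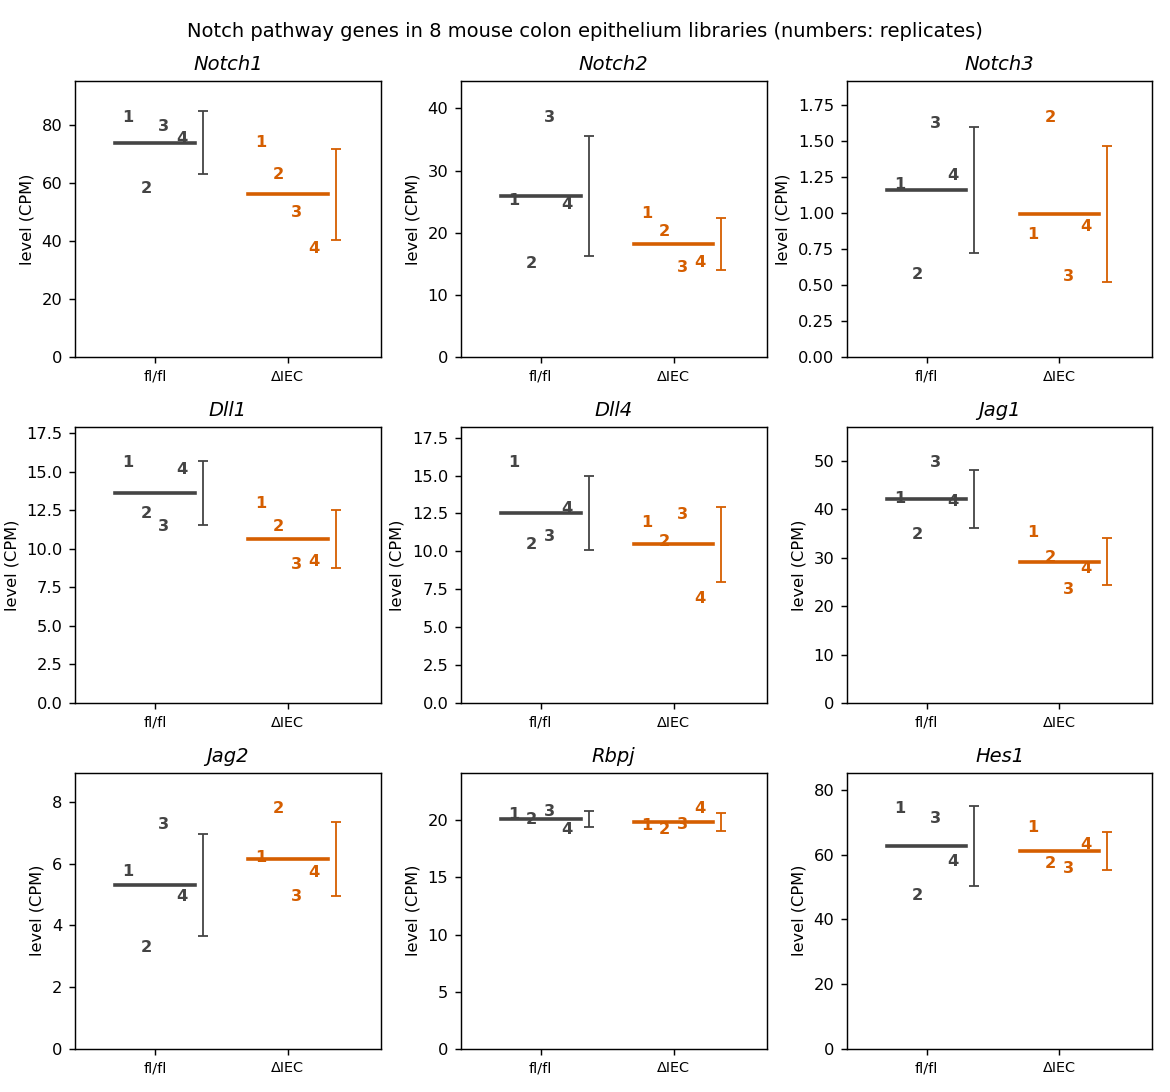
Levels (CPM, vertical axes from 0) of 9 Notch pathway genes in colonic epithelium of fl/fl and ΔIEC mice. Each number is 1 library, named by its replicate, with no pairing between groups. Lines are means and bars are ± 1 SD. The groups overlap in every panel, Rbpj lies between 19.2 and 21.0 CPM, and fl/fl replicate 2 is the lowest fl/fl library for Notch1 (58.3 CPM) and Hes1 (47.2 CPM).

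Library fl/fl replicate 2 held the lowest fl/fl value of Notch1, Notch2, Notch3, Dll4, Jag1, Jag2 and Hes1. Without it, the log2 change was -0.50 for Notch1, -0.70 for Notch2 and -0.61 for Jag1 (adjusted p of 0.246, 0.171 and 0.0664 by edgeR quasi-likelihood, Benjamini-Hochberg), and none of the 9 passed. Marker sums differed between these libraries. Stem and progenitor markers, 7 genes in sum, stood at 268.4, 213.5, 312.5 and 240.5 CPM in fl/fl replicates 1 to 4 and at 273.1, 274.1, 231.6 and 190.6 CPM in ΔIEC replicates 1 to 4. The lowest library of each group in this sum was thus fl/fl replicate 2 and ΔIEC replicate 4, which were also the lowest of their group for Notch1 and Dll4. For Jag1, Notch2, Notch3, Dll1, Jag2 and Hes1 the lowest ΔIEC library was replicate 3 instead. Endothelial markers, whose cells use Dll4, Notch1 and Jag1, ranged in sum over 6 genes from 13.3 to 16.7 CPM in fl/fl and from 9.22 to 15.1 CPM in ΔIEC, with Cdh5 at or near 0 and most of the sum from Pecam1 and Vwf. Library fl/fl replicate 2 lay within the endothelial range of the other fl/fl libraries (15.4 CPM). It was apart from them in enteroendocrine markers, with 153.3 CPM against 298.4 to 546.9 CPM, and in leukocyte markers, with 7.58 CPM against 11.6 to 14.3 CPM. Its goblet marker sum was the highest of the fl/fl libraries. The part of these markers in the result was not tested.

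The other pathway genes of the mouse colon showed the same lack of calls. None passed the threshold in any of the 9 role lists. Dlk1, a Delta-like protein without the domain that activates receptors, had a log2 change of 1.39 and groups that did not overlap (0.438 to 1.25 CPM in fl/fl and 1.29 to 2.79 CPM in ΔIEC), but only 10 to 57 counts per library and an adjusted p of 0.136 (edgeR quasi-likelihood, Benjamini-Hochberg). It is named after its values were seen. Among the secretory lineage factors, Spdef (0.09), Klf4 (-0.09), Gfi1 (-0.25) and Foxa1 (-0.06) had log2 changes of either sign, with none of the 9 tested passing, and they too were picked after their values were seen. Of the cell type lists, 4 of the 6 tuft markers were higher in ΔIEC, with sums from 51.4 to 70.8 CPM in fl/fl and from 155.5 to 177.6 CPM in ΔIEC. Goblet, enteroendocrine and colonocyte markers had no gene past the threshold.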

How the data were processed

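RNA was sequenced as stranded total RNA libraries with paired reads of 75 bases (Caco-2) and 50 bases (mouse). Per the submitters' processing notes and the study's methods, reads were trimmed with Trim Galore (0.4.4), aligned with STAR (2.5.2b) to GRCh38 or GRCm38 and counted per gene with featureCounts. The deposited tables hold raw counts from the authors, and per the file headers featureCounts 1.5.2 counted Caco-2 reads by strand and 1.6.4 counted mouse reads without strand. In mouse, reads of a gene and of a gene on the opposite strand therefore cannot be told apart, which touches Dll4, Dll1 and Notch1. Reads carry no molecular identifiers.

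Groups came from the sample labels. Each pair of groups was fitted alone with edgeR's quasi-likelihood test (edgeR 4.0.16, limma 3.58.1, R 4.3.3) after filterByExpr and TMM scaling, with p-values adjusted by Benjamini-Hochberg across every tested gene and a threshold of 0.05. Intervals of 95% use the degrees of freedom of that test. The script was tested on simulated data. Per-length levels divide CPM by the exon length in the tables. The members and lists were chosen with earlier results of these data known. The 10 genes are named throughout, and of each role list up to 3 genes past the threshold with the largest log2 fold change and a mean of at least 1 CPM. The 3 coactivators that rose in ΔDNMT3A are named beside these, after their values were seen. Likeness to HES1 was the root mean square difference between line means of log2 CPM (0.1 added) after centring. One of the genes it named is not reported here. For ATOH1 it could not be computed. Alternatives were DESeq2 (1.42.0), RLE and upper-quartile scaling, other filters, a call rule of at least 1 on the log2 scale, removal of length trends, single lanes, all 4 lines in one fit, a replicate block and each library left out. Removal of GC trends was chosen after seeing the data. Caco-2 replicates 1 and 2 were on lane 5 and 3 and 4 on lane 6, as the table names give it. Mouse Atoh1, Neurl1, Nrarp, Hes4 and Insm1 were not analysed here. Promoter windows are from RefSeq (GRCh38.p14).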

Additional observations from a re-analysis of the deposited data

How the results depend on the processing

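Of 133 counts of Notch genes past the threshold under alternative settings, 125 stayed within 1.5 times the value reported. Asking for at least 1 on the log2 scale left 0 genes in ΔDNMT3A against WT, 1 in DNMT3A1 against ΔDNMT3A, 3 in DNMT3A2 against ΔDNMT3A, 0 in DNMT3A1 against WT, 1 in DNMT3A2 against WT and 2 in DNMT3A1 against DNMT3A2, by construction of the stricter rule. Lane 6 alone gave 3 genes in DNMT3A1 against ΔDNMT3A, where DNMT3A1 has 1 library that is assumed to vary like the other group, and DESeq2 gave 1 in the mouse (Jag1). Leaving out 1 library at a time gave 6 genes throughout in ΔDNMT3A against WT, 4 to 6 in DNMT3A1 and 7 to 9 in DNMT3A2 against ΔDNMT3A, 5 to 8 in DNMT3A1 and 6 to 8 in DNMT3A2 against WT, 9 throughout in DNMT3A1 against DNMT3A2 and 0 throughout in mouse.

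Of 1134 log2 fold changes under alternatives, 1074 kept direction and side of the threshold, 29 lost and 14 gained the threshold, and 17 changed sign. The 19 Caco-2 values of at least 0.5 in size kept both in all 350 alternatives. The sign changes were in values near 0, and their cause was not tested. For NOTCH2, DNMT3A1 against WT, the value was 0.0012 with DESeq2, 0.0003395 with RLE, 0.0037 with upper-quartile scaling, 0.011 with a mean of at least 1 CPM, 0.00274 with all 4 lines, 0.092 in lane 5, 0.00270 with the replicate block and between -0.0422 and 0.0552 with a library left out. JAG2 in ΔDNMT3A against WT was 0.034 without the GC trend and RBPJ -0.010 in lane 5. DLL4 in DNMT3A1 against ΔDNMT3A was 0.0096 with the block, and NOTCH3 in DNMT3A2 against WT -0.0598 in lane 6. In mouse, Rbpj was 0.055 without the length trend and Hes1 ranged from -0.16 to 0.048 with a library left out, with 0.021 and 0.048 without fl/fl replicate 3 or 1.

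Same-numbered Caco-2 libraries were not treated as pairs in the main fit. Their deviations correlated between -0.03 and 0.06 over 21 pairs, and 10 were best with their own number. Among these were replicates 1 to 4 of WT with ΔDNMT3A. No chance level was set beside these values, so they do not decide whether a number marks a pairing. With the replicate block, 6, 5, 8, 5, 7 and 9 Notch genes passed in the comparisons in the order given above. Mouse numbers name libraries only. Over all mouse genes, 101 passed (88 higher, 13 lower), against 407 with DESeq2 (260 higher, 147 lower). Without fl/fl replicate 1, 3 or 4 the count was 57, 55 or 61, without ΔIEC replicate 2 or 3 it was 57 or 45, and without fl/fl replicate 2 it was 126 (89 higher, 37 lower). DLL1, DLL4 and mouse Notch3 rest on the fewest counts of the genes tested.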
